A study of Mus musculus with 12 samples.

Results

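Immediate early genes, 10 in number, of the mouse left atrium (LA) were examined in LA with and without Notch activation in cardiomyocytes (CMs). The members were the rows of the gene count table named Fos, Fosb, Jun, Junb, Egr1, Atf3, Myc, Ier2, Nr4a1 and Ier3, which are 10 of the 54658 gene names in the table. All 10 passed the filter on low counts, as did 13541 genes in all. They were chosen by name, and the comparison asked whether they differed between the groups and how widely they varied within each group, since these transcripts are known to respond to the handling of tissue.

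The data were from 6 control LA and 6 LA with an induced Notch intracellular domain (iNICD) sequenced as separate libraries. The iNICD mice carried αMHC-rtTA, in which the αMHC promoter drives the doxycycline-responsive activator in CMs, together with tetO-NICD, the active fragment of Notch1 under the control of that activator. The controls were littermates that carried αMHC-rtTA alone, and both groups ate doxycycline chow for 3 weeks with no washout, were 2 to 3 months old and had a mixed genetic background. The controls were 4 females and 2 males and the iNICD mice 3 females and 3 males, so sex was not balanced between the groups. RNA came from whole frozen LA, in which the transgene acts in CMs and every other cell type contributes RNA as well. In such bulk RNA, fewer cells of a type and less RNA per cell cannot be told apart.

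Immediate early genes are transcribed within minutes of a stimulus from factors already present in the cell, with no need for new protein. Growth factors, stretch, calcium entry and injury act on them through MAP kinases and through the factors SRF and CREB bound at their promoters, and their short-lived mRNAs then decline again. Most of them encode transcription factors that switch on later genes, and in heart tissue they are known to rise with pressure load, ischemia and the handling of the tissue itself.

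Library totals were 21432632 to 27182038 counts. Notch1, which the transgene also produces, was counted 2335 to 3311 times per control library and 71187 to 107667 times per iNICD library, so each library matched its label. Markers of atrial CMs were abundant in every library and those of lung epithelium and neutrophils were nearly absent, with summed normalized CPM (counts of a gene relative to the library's total) of at most 0.46 and 0.79. One male control, control replicate 5, stood apart from the rest on the first principal component (-77.4, against -20.2 to 22.7 in the others). In it, 13.2% of tested genes were at least 2-fold away from the mean of the other controls on the log2 scale. Values without it are therefore given beside the results they move most. Control replicate 4 lay among the others on that component (-5.10) and was also left out because the members were high in it. Leaving out a control for that reason lowers the members' control level by construction, so such fits are not an independent check.

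Of the 10 members, 1 passed the test between the groups. Fos, the AP-1 subunit that pairs with Jun proteins, fell in iNICD LA with a log2 fold change of -3.10 ± 0.71 (SE, n = 6 per group, edgeR quasi-likelihood adjusted p = 0.0283), and no member rose. Over all tested genes, 1.34% were called lower, 2.78% higher and 4.12% in either direction. The fitted log2 fold change was below 0 for all 10 members, against 51.3% of tested genes, with a median of -1.503 for the members and -0.01 for all tested genes. A fitted level at least 2-fold lower was seen for 7 members and 1.1% of tested genes. At an unadjusted p under 0.05, 8 of the 10 were lower, all but Jun and Myc, against 8.09% of tested genes. Without control replicates 4 and 5, 4 members (Fos, Fosb, Atf3 and Nr4a1) were at least 2-fold lower, against 0.626% of tested genes, and 5 were lower at an unadjusted p under 0.05, against 7.29%. The members' deviations were shared among libraries, so these counts do not come from independent genes. The members' count of calls depended on the tool: DESeq2 and the edgeR exact test each called 5 members lower, namely Fos, Fosb, Egr1, Ier2 and Nr4a1, against 3.28% and 2.07% of tested genes.

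Promoter sequence was read for 7 of the members from the RefSeq table of GRCm38.p6, which covers 250 bases before and 50 after the start of 1 transcript of each gene, and Egr1, Myc and Ier2 were not in that table. For Atf3 and Nr4a1 that start lies inside the gene span given below, at the start of a shorter transcript than the longest one annotated. Both strands were searched for the CArG box bound by SRF, for TGANTCA (AP-1), TGACGT (the core of the CREB and ATF site), GCGNGGGCG (Egr1) and TGGGAA (the core bound by RBPJ, the DNA-binding partner of NICD). No match to one motif overlapped a match to another. TGACGT was found in Fos and Atf3 and in 7.51% of the 32851 promoters in the table. GCGNGGGCG was found in Fosb and Nr4a1 and in 5.55% of all promoters, while TGGGAA was found in Jun and in 25.6%. No CArG box (1.63% of all promoters) and no TGANTCA (7.81%) lay in the 7 windows. Sequence farther upstream was not searched, so a site there would be missed. The 100 bases just before the RefSeq start are shown for the 5 members with a match, since they show where each run of letters lies relative to the start. Each is written 5′ to 3′ on the gene's strand, with the match in capitals, and a match is only a run of letters. Of the bases shown, 7 of Atf3 and 6 of Fosb, those nearest the start, are exonic in the GENCODE annotation, and most of the Atf3 match lies in them.
Fos, chr12:85473790-85473889, plus strand: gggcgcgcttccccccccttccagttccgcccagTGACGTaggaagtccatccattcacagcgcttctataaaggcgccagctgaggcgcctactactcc
Atf3, chr1:191183334-191183433, minus strand: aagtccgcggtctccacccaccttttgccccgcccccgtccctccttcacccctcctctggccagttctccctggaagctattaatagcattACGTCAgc
Fosb, chr7:19310046-19310145, minus strand: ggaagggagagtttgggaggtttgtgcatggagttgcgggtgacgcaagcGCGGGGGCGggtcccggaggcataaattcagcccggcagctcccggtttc
Nr4a1, chr15:101266746-101266845, plus strand: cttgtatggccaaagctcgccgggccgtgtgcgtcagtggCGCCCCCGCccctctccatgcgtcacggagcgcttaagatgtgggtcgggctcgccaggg
Jun, chr4:95052223-95052322, minus strand: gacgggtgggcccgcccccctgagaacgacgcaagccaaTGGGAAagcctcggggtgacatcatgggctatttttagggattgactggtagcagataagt

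Among the AP-1 genes, Fos and Fosb had the 2 widest fitted changes of the members with all libraries, and Jun one of the smallest. Fos (chr12:85473890-85477273, plus strand, GRCm38 here and for all members) ranged from 11.1 to 284 normalized CPM in control LA with a median of 38.0, and from 3.85 to 12.5 with a median of 10.5 in iNICD LA. 5 of the 6 controls lay above every iNICD library, control replicate 6 at 11.1 lay within the iNICD range, and control replicate 4 alone was at 284. The group means were 79.9 ± 104 and 9.34 ± 3.56 (SD, n = 6), an 8.55-fold lower fitted level in iNICD LA (95% interval 2.93 to 24.9), and an exact two-sided permutation test of the log2 values gave p = 0.00866. The Fos call held without any single control library but was lost without any one of the iNICD libraries (adjusted p = 0.0537 to 0.0732, edgeR), with a log2 fold change of -3.194 to -2.935 in those fits. Without control replicate 4 Fos had a log2 fold change of -2.06 (adjusted p = 0.0385) and was the 1 member called, against 0.742% of tested genes called lower, as it was without control replicate 5, against 2.3%. Without control replicates 4 and 5 Fos was at -1.53 (adjusted p = 0.0529), where 0 of the 10 members were called against 1.33% of tested genes.

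Fosb (chr7:19302696-19310051, minus strand) encodes a close relative of Fos that also needs a Jun partner. It ranged from 1.48 to 47.7 normalized CPM in control LA (median 15.6) and from 1.06 to 7.67 in iNICD LA (median 2.29). 4 controls lay above all iNICD libraries, and control replicate 6 at 1.48 lay low among the iNICD values. Fosb had a log2 fold change of -2.62 ± 0.72 (SE) with an adjusted p of 0.0628 (edgeR), which did not pass, although it did without control replicate 6 (adjusted p = 0.0217) and without iNICD replicate 5 (adjusted p = 0.0393). Without control replicate 4 its log2 fold change was -2.04 (adjusted p = 0.143), and without control replicates 4 and 5 it was -1.69 (adjusted p = 0.228).

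Jun (chr4:95049034-95052222, minus strand), the partner of Fos proteins that can also pair with itself, overlapped widely between the groups. Control LA ranged from 49.6 to 238 normalized CPM (median 73.4) and iNICD LA from 34.5 to 103 (median 54.6), and only control replicate 4 lay above every iNICD library. For Jun the log2 fold change of -0.69 (95% interval -1.56 to 0.18) did not pass (adjusted p = 0.405, edgeR), and without control replicate 4 it was -0.21.

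Junb (chr8:84974484-84978718, minus strand), a Jun relative known to temper the activity of Jun, ranged from 9.95 to 69.8 normalized CPM in control LA (median 18.1) and from 4.82 to 18.6 in iNICD LA (median 9.18). Control replicates 4 and 5, at 65.99 and 69.8, were the 2 controls above every iNICD library, and the other 4 lay between 9.95 and 18.1. Junb had a log2 fold change of -1.57 ± 0.54 (adjusted p = 0.140, edgeR) with all libraries and one of -0.44 without these 2 controls (adjusted p = 0.656). The gene overlaps Prdx2 on the opposite strand, which had 70966 counts over the 12 libraries against 6214 for Junb. Whether the counting used strand is not given in the sources used here, so the Junb counts are uncertain. Jun overlaps its antisense transcript Junos in the same way, with 236 counts against 23522.

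**Figure D1:**
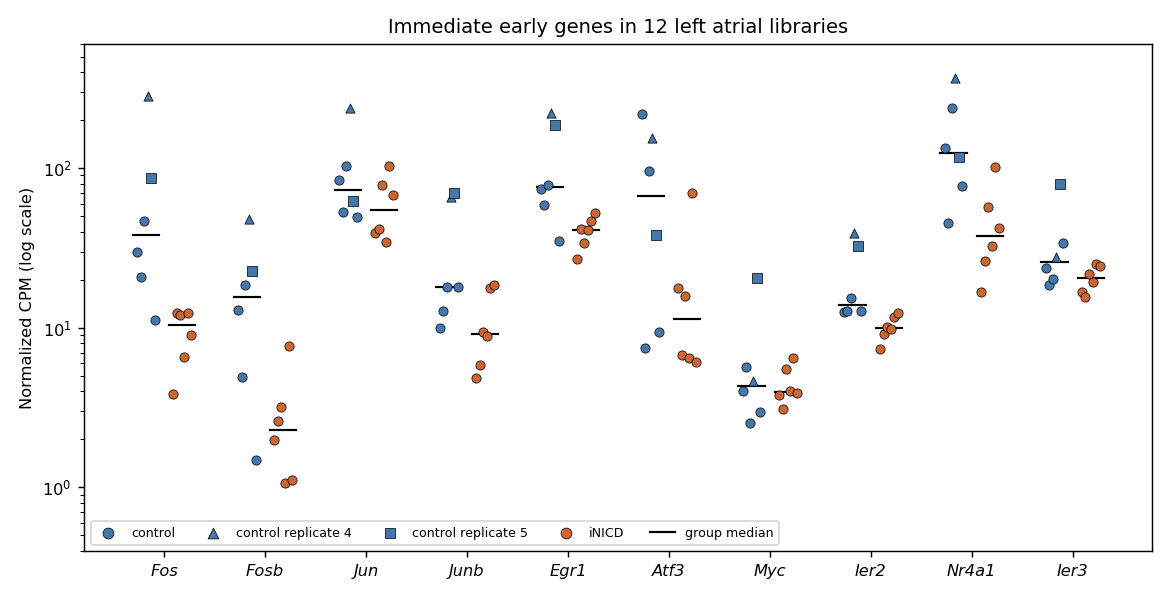
Normalized CPM (log scale) of the 10 members, with 1 point per library, control in blue and iNICD in orange, and a bar at each group median. Control replicates 4 (triangle) and 5 (square) are marked, and in Fos control replicate 4 stands at 284 while the iNICD libraries lie between 3.85 and 12.5.

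Atf3 (chr1:191170296-191218039, minus strand), a bZIP factor of the ATF and CREB family that is induced by many stresses, had the largest SD of log2 CPM of the members in both groups. It ranged from 7.51 to 220 normalized CPM in control LA (median 66.9) and from 6.14 to 70.2 in iNICD LA (median 11.3). The control values fell into 4 libraries between 38.0 and 220 and 2 libraries, replicates 2 and 6, below 10, and iNICD replicate 5 at 70.2 exceeded 3 of the 6 controls. Its log2 fold change of -2.09 had a wide 95% interval, from -3.97 to -0.21, and did not pass (adjusted p = 0.231, edgeR). Without iNICD replicate 5 it was -3.04 (adjusted p = 0.0801), without control replicate 1 -1.57 and without control replicate 4 -1.85. The highest Atf3 library was control replicate 1, which was close to the control median for most other members, and the second highest was control replicate 4.

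Egr1 (chr18:34859823-34864984, plus strand), a zinc finger factor that is a direct target of SRF, ranged from 35.1 to 223 normalized CPM in control LA (median 76.3) and from 26.9 to 52.7 in iNICD LA (median 41.2). 5 of the 6 controls lay above every iNICD library and control replicate 6 lay within their range. Egr1 had a log2 fold change of -1.43 ± 0.39 (adjusted p = 0.0635, edgeR) and the exact two-sided permutation p of this gene was 0.0173. Egr1 passed without control replicate 6 (adjusted p = 0.0217), and without control replicates 4 and 5 its log2 fold change was -0.61 (adjusted p = 0.193).

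Nr4a1 (chr15:101254269-101274795, plus strand), an orphan nuclear receptor of the NR4A group, was among the members of highest level per length. It ranged from 45.03 to 365 normalized CPM in control LA (median 125) and from 16.7 to 102 in iNICD LA (median 37.4). 4 controls lay above all iNICD libraries and 4 iNICD libraries below all controls. The log2 fold change was -1.81 ± 0.52 (adjusted p = 0.0765, edgeR). It passed without control replicate 2 (adjusted p = 0.0435) or without iNICD replicate 5 (adjusted p = 0.0391). Its log2 fold change was -1.402 without control replicate 4 (adjusted p = 0.168) and -1.42 without replicates 4 and 5 together (adjusted p = 0.187). Neither of these fits passed.

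Myc (chr15:61985391-61990374, plus strand), the basic helix-loop-helix factor that drives growth and ribosome synthesis with its partner Max, was the lowest member per length in control LA and did not separate the groups. It ranged from 2.52 to 20.4 normalized CPM in control LA (median 4.33) and from 3.08 to 6.42 in iNICD LA (median 3.97). Control replicate 5 held the value of 20.4, and the next control was at 5.71. The log2 fold change was -0.59 (95% interval -1.59 to 0.42, adjusted p = 0.549, edgeR) with all libraries and turned to 0.16 without control replicate 5.

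Ier2 (chr8:84661331-84662852, minus strand) encodes a nuclear protein of the early growth response with a less defined role, and it was the only member whose groups did not overlap, as in 1.25% of all tested genes in this direction and 3.83% in either direction. It ranged from 12.6 to 39.2 normalized CPM in control LA (median 14.0) and from 7.34 to 12.4 in iNICD LA (median 9.97). The gap between the groups was narrow, since 4 of the 6 controls lay between 12.6 and 15.3. The exact two-sided permutation p of 0.00216 is the smallest that 924 splits allow, while the log2 fold change of -1.04 ± 0.31 did not pass over all genes (adjusted p = 0.0807, edgeR). Without control replicates 4 and 5 the log2 fold change was -0.40 (adjusted p = 0.157).

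Ier3 (chr17:35821684-35822923, plus strand), a small stress-induced protein linked to cell survival, ranged from 18.4 to 80.1 normalized CPM in control LA (median 25.7) and from 15.6 to 25.3 in iNICD LA (median 20.6). 3 controls lay above every iNICD library, and control replicate 5 was far above the others at 80.1. The log2 fold change was -0.72 (95% interval -1.43 to -0.02, adjusted p = 0.272, edgeR) and -0.27 without control replicate 5.

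Per kilobase of merged exons, the control medians ran from Nr4a1 (35.6 normalized CPM per kb), Atf3 (31.1), Jun (23.0), Ier3 (22.7), Egr1 (17.01) and Fos (16.2) down to Ier2 (9.19), Junb (7.86), Fosb (2.504) and Myc (1.59). The group ranges of neighbors in this order overlapped in the control libraries, so the order is not fixed by these data. In iNICD LA the medians per kilobase were highest for Ier3 (18.2) and Jun (17.1), while Fos stood at 4.45, Atf3 at 5.25 and Fosb at 0.367.

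The members' differences were carried unevenly by the libraries. Control replicate 4, a female, had the highest level of all 12 libraries in 6 of 10 members (Fos, Fosb, Jun, Egr1, Ier2 and Nr4a1), whereas only 6.32% of tested genes were highest there. It was at least 2-fold above the median of the other controls in 8 of 10 members, against 0.997% of tested genes. Control replicate 5 was highest in 3 members (Junb, Myc and Ier3), but 26.6% of all tested genes were highest in that library too, so this share is close to its background. It was at least 2-fold above the other controls in 6 members, against 5.21% of tested genes. Among the iNICD libraries, replicate 5 was the highest of its group in 6 of 10 members (16.5% of tested genes), and replicate 1 was the lowest of all 12 libraries in 5 (8.35%).

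As the median over members of the log2 difference from the control median, control replicates 4 and 5 were at 1.55 and 1.22 and the other controls between -0.62 and 0.20. The iNICD libraries were between -1.63 and -0.14. Control replicates 2 and 6, at -0.48 and -0.62, were thus lower than iNICD replicates 5 and 6, at -0.14 and -0.35. Without control replicate 4 the median fitted log2 fold change of the members was -1.17 with 10 below 0, without control replicate 5 it was -1.21 with 9 below 0, and without both it was -0.52 with 9 below 0. Only Myc was above 0 in those fits. The controls left out were those with the highest member levels, which by itself brings the median of the members nearer to the iNICD level.

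**Figure D2:**
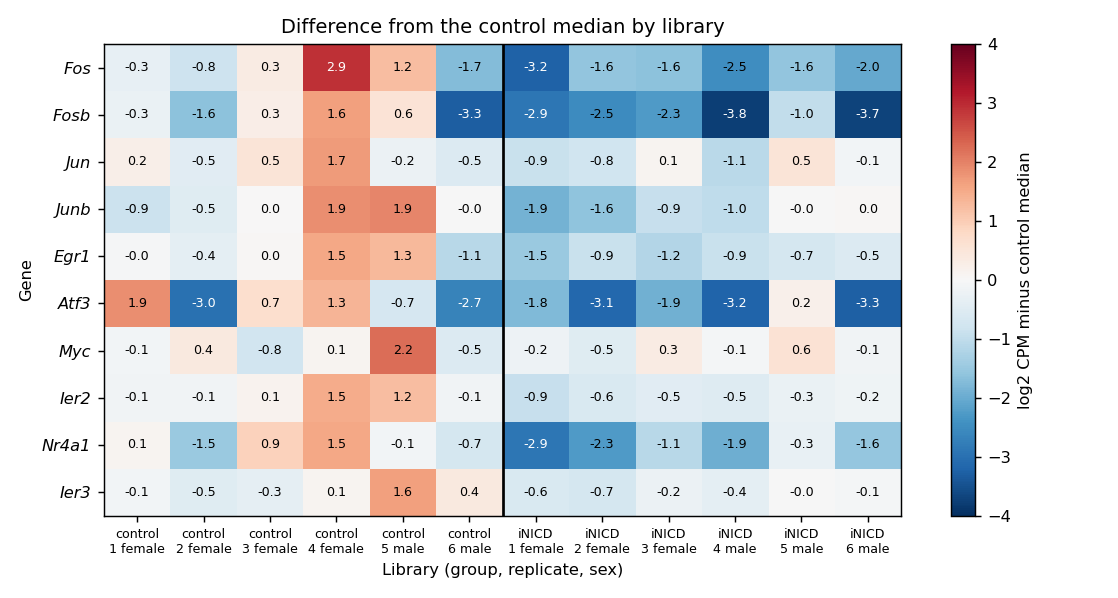
Log2 CPM minus the median of the 6 controls for each member (rows) in each library (columns, with group, replicate and sex), red above and blue below, with the control libraries left of the black line. Control replicates 4 and 5 form the red columns, with Fos at 2.9 and 1.2 and Myc at 0.1 and 2.2, and most iNICD cells are blue.

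**Figure D3:**
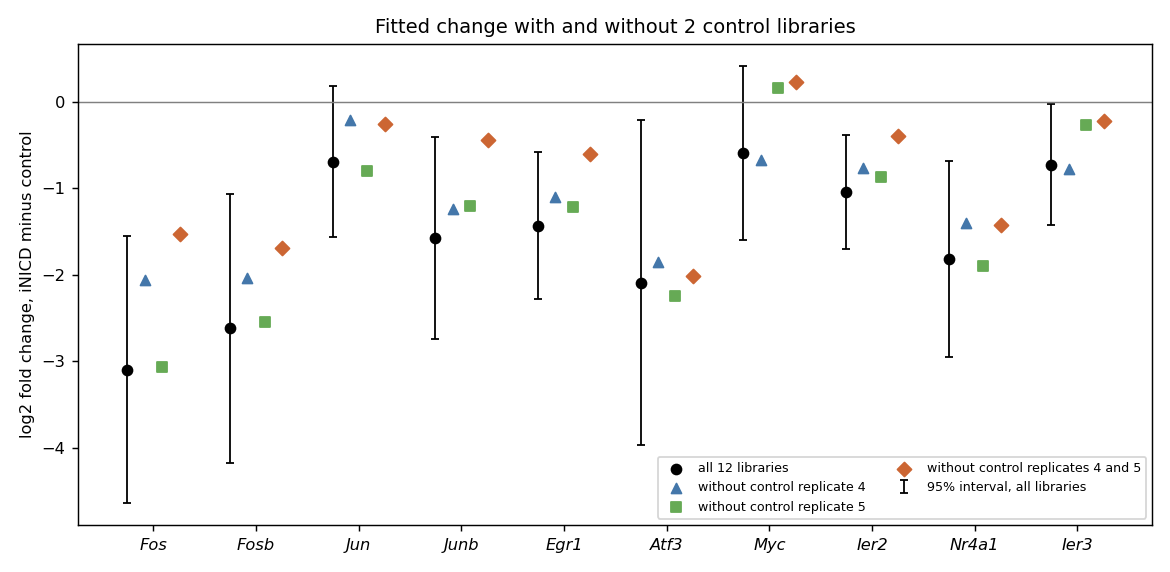
Fitted log2 fold change, iNICD minus control, of each member with all 12 libraries (black, bars are 95% intervals), without control replicate 4 (blue), without control replicate 5 (green) and without both (orange diamonds). Without both, Fos moved from -3.10 to -1.53 and Junb from -1.57 to -0.44, while Atf3 stayed near -2 and Myc was above 0.

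The summed levels of several cell type markers also differed in these 2 controls. In control replicate 5 the 5 endothelial markers summed to 1145 normalized CPM, the highest of all libraries (818 to 1145 in control and 727 to 945 in iNICD LA), and the 4 smooth muscle markers to 392 (65.1 to 392 and 68.5 to 236). The smooth muscle sum depended strongly on 1 gene, Cnn1, with 100 to 5035 counts in control and 338 to 3172 in iNICD LA. In control replicate 4 the 5 fibroblast markers summed to 3191 (2217 to 3191 and 2298 to 3690) and the 4 mesothelial markers to 287 (200 to 287 and 128 to 269), while its endothelial sum was the lowest of the controls at 818. None of these markers was called between the groups. The 5 macrophage markers summed to 220 to 294 in control and 236 to 334 in iNICD LA. 3 of the 6 atrial CM markers, Tnnt2, Myl7 and Sln, fell in iNICD LA with log2 fold changes of -0.44, -0.54 and -0.64. Mitochondrial transcripts took 7.52% to 9.59% of counts in control and 9.60% to 11.2% in iNICD LA. The part of these differences in the members' levels was not tested, and dissection and freezing times are not given in the sources used here.

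The sexes were also compared, since 2 of the 6 controls and 3 of the 6 iNICD mice were male. In the fits within each sex the median member log2 fold change was -1.83 in females, with 10 of 10 below 0, and -1.28 in males, with 8 of 10 below 0. Atf3 was at -3.14 in females and 0.20 in males, Nr4a1 at -2.55 and -0.73, and Jun at -1.16 and 0.28. Ier3 and Myc went the other way, with Ier3 at -0.32 in females and -1.32 in males and Myc at -0.03 and -1.31, where control replicate 5 is 1 of the 2 male controls. The interaction of sex and genotype called 0 of 13541 genes by the edgeR quasi-likelihood test, with 501 at an unadjusted p under 0.05, and the lowest adjusted p of any gene was 0.916. Ier3 was the only member with an unadjusted interaction p under 0.05 (0.0316, edgeR). With sex as a covariate the median of the members was -1.65.

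The spread within each group was wide for these genes compared with the rest of the transcriptome. The SD of log2 CPM over the 6 controls had a median of 1.08 for the members and 0.237 for all tested genes, and over the 6 iNICD libraries 0.652 and 0.168. The control SD exceeded 1 for 7 of 10 members and 2.69% of tested genes, and the iNICD SD exceeded 1 for 2 members (Fosb and Atf3) and 1.77% of tested genes. Among all tested genes the members lay between percentile 94.0 (Ier2) and 99.8 (Atf3) for the control SD, and between 72.8 (Ier2) and 99.1 (Atf3) for the iNICD SD. Atf3 ranged 29.2-fold among controls and 11.4-fold among iNICD libraries, Fosb 32.3-fold and 7.25-fold, and Ier3 4.35-fold and 1.62-fold.

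All 10 members had the larger SD in control LA, as did 68.5% of tested genes. The ratio of the control to the iNICD SD was 2.09 in the median of the members and 1.33 over all tested genes. It was highest for Egr1 (2.96), Ier2 (2.80), Myc (2.79) and Ier3 (2.72), and lowest for Nr4a1 (1.19) and Jun (1.32). A limma fit on the absolute deviations from the group means called 0 of the 10 members and 0.00738% of tested genes, which was 1 gene. With 6 libraries per group, a member that was not called is not shown to have an equal spread in both groups. 2 members, Ier2 (unadjusted p = 0.00382, adjusted p = 0.392, limma) and Egr1 (unadjusted p = 0.0236, adjusted p = 0.444, limma), were below 0.05 before adjustment, as were 8.18% of tested genes in this direction and 10.4% in either direction.

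The larger control spread rested in part on the same 2 libraries. Without control replicate 4 the control SD was larger for 8 members and 69.6% of tested genes, and without control replicate 5 for 10 members and 48.9%. Without both it was larger for 7 members and 49.6% of tested genes, and the members' median control SD was 0.520 against 0.652 in iNICD LA. Ier2 then had a control SD of 0.136 and Junb one of 0.417, both below their iNICD SDs of 0.267 and 0.793. Atf3 kept a control SD of 2.42 and Fosb one of 1.60, both above their iNICD SDs of 1.36 and 1.031.

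**Figure D4:**
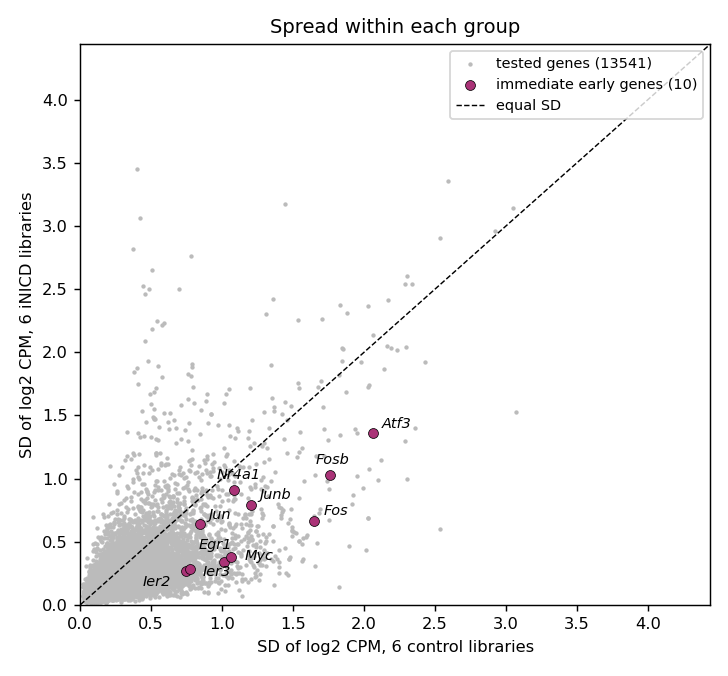
SD of log2 CPM over the 6 control libraries (x axis) and over the 6 iNICD libraries (y axis) for the 13541 tested genes (grey) and the 10 members (purple), with a dashed line where both are equal. All 10 members lie below the line, from Atf3 (2.06 and 1.36) to Ier2 (0.748 and 0.267).

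The other genes of the early response were taken from lists by function. Of 17 other early response transcription factors tested, 3 fell and 0 rose, with a median log2 fold change of -0.60 (-0.42 without control replicate 4, -0.46 without control replicate 5 and -0.20 without both), where 1.34% of all tested genes were called lower. These were Nr4a2 (-1.54, adjusted p = 0.00632, edgeR) and Nr4a3 (-2.67, adjusted p = 0.0224), the other two receptors of the NR4A group, and Egr2 (-1.64, adjusted p = 0.0342), a relative of Egr1. Nr4a3 was at 13.9 to 115 normalized CPM in control and 3.03 to 26.2 in iNICD LA, and Nr4a2 at 2.95 to 9.91 and 1.70 to 2.84, so the groups overlapped for Nr4a3 and did not for Nr4a2, as in 1.25% of tested genes in this direction. Without control replicates 4 and 5, Nr4a2 (-1.49, adjusted p = 0.0169) and Nr4a3 (-2.60, adjusted p = 0.0496) were called, against 1.33% of tested genes called lower. Egr2 was not (-0.98, adjusted p = 0.119), nor was it without control replicate 4 alone (-1.48, adjusted p = 0.0803).

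Of 35 other early response genes tested, 3 fell and 0 rose, with a median log2 fold change of -0.84 (-0.68 without control replicate 4, -0.34 without control replicate 5 and -0.19 without both), beside the same 1.34% of tested genes called lower. Sik1, a kinase induced by cAMP, was at 84.1 to 229 normalized CPM in control and 30.6 to 70.1 in iNICD LA (log2 fold change -1.34, adjusted p = 0.0147, edgeR), and the groups did not overlap, as in 1.25% of tested genes. Cyr61 and Ctgf, matricellular proteins that respond to SRF and YAP, had log2 fold changes of -2.72 (adjusted p = 0.0143) and -2.49 (adjusted p = 0.0107). All 3 were called without control replicates 4 and 5 as well, with log2 fold changes of -1.04, -1.66 and -1.88, where 1.33% of tested genes were called lower. In this list, 12 of 35 genes were highest in control replicate 4 and 19 in control replicate 5, against the 6.32% and 26.6% of tested genes given above.

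Of 13 MAP kinase phosphatases and feedback inhibitors tested, 1 fell, where 1.34% of all tested genes were called lower. It was Dusp5, a nuclear phosphatase of ERK (-1.24, adjusted p = 0.0183, edgeR), and the median of the list was -0.03. The 8 tested AP-1 and small Maf partners had no call and a median of -0.15, with Maff at -1.01 (adjusted p = 0.304) and Fosl2 at -0.82 (adjusted p = 0.0809). The 25 upstream kinases and factors had no call and a median of -0.01. In that list Srf, the factor of the CArG box, was at -0.86 (adjusted p = 0.0629) and its cofactor Mkl2 at 0.41 (adjusted p = 0.163). Of the 7 tested partners of Myc none was called, the widest being Max at -0.36 and Mnt at -0.35, with adjusted p of 0.142 and 0.324. Maff was at -0.27 without control replicate 5. In the same fit Fosl2 (-0.53, adjusted p = 0.0491) and Srf (-0.60, adjusted p = 0.0399) were called lower, against 2.3% of tested genes. The kinase gene Map2k4 was called higher (0.22, adjusted p = 0.0264), as were 487 of 13499 tested genes. Without replicates 4 and 5 none of these 3 was called, where 1.33% of tested genes were called lower and 362 of 13418 higher. The medians of these 4 lists were between -0.12 and 0.03 in the fits without replicate 4, replicate 5 or both.

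Other stress responses were read against the 1.34% of tested genes called lower with all libraries. None of 13 heat shock genes passed, with a median of -0.34, Hspa1a, an inducible Hsp70, at -1.28 (adjusted p = 0.426, edgeR) and the constitutive Hspa8 at 1.22 (adjusted p = 0.262). Hspa1a was at 27.2 normalized CPM in control replicate 4 and 1.69 to 9.87 in the other controls, and its log2 fold change was -0.49 without that library. Hspa8 was at 101 and 109 in iNICD replicates 2 and 5 and 13.5 to 24.8 in the other 10 libraries. Both genes have near-identical copies, so their counts are uncertain. None of 8 glucocorticoid and metal response genes passed, with a median of -1.0 that was -0.41 without control replicate 5 and -0.33 without replicates 4 and 5. The metallothionein Mt2 was at 296 normalized CPM in control replicate 5, 3.06 to 6.50 in the other controls and 2.43 to 7.67 in iNICD LA. Its log2 fold change was -3.84 (adjusted p = 0.122) with all libraries and -0.26 without control replicate 5, and that of Zbtb16 was -1.24 (adjusted p = 0.220) and -0.61. Of 12 hypoxia response genes 1 fell, the prolyl hydroxylase Egln3 (-0.97, adjusted p = 0.0174), and the median was -0.17. Without control replicate 5, 3 hypoxia genes were lower, namely Egln3, Vegfa and Pdk1, against 2.3% of tested genes, with a list median of -0.0023. Without replicates 4 and 5 Hk2 was lower as well, 4 of 12 against 1.33% of tested genes, with a list median of 0.0020.

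**Figure D5:**
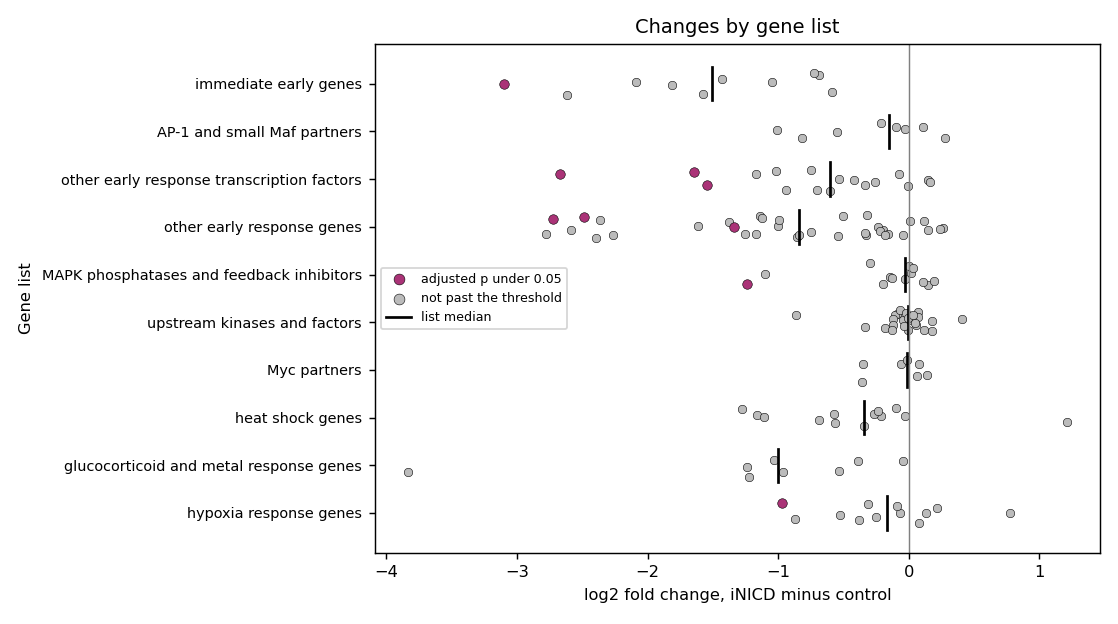
Fitted log2 fold change, iNICD minus control, of each tested gene (points) in the 10 members and 9 lists by function, with genes at adjusted p under 0.05 in purple, the others in grey and a bar at each list's median. The members have the lowest median, -1.503, and the called genes of all lists lie below 0.

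The genes whose deviations from the group means most resembled the mean profile of the members were ranked by Pearson r over the 12 libraries, which share the depth and library effects of all genes. They were Btg2 (0.953), Zfp36 (0.948), Tbc1d25 (0.934), Phrf1 (0.933), Errfi1 (0.914), Cyr61 (0.908), Gm38157 (0.906) and Apba3 (0.905), and without control replicate 4 these values were 0.877 to 0.937. Btg2, an antiproliferative early gene, was at 312 normalized CPM in control replicate 4, 40.1 to 199 in the other controls and 30.04 to 69.5 in iNICD LA. Zfp36, which destabilizes early mRNAs, was at 187, 28.9 to 93.6 and 23.9 to 62.3. Tbc1d25 and Phrf1 followed the profile over a narrow range, Phrf1 from 46.1 to 57.2 in all 12 libraries. Of the members, Ier2 (0.914), Fos (0.905) and Egr1 (0.904) were closest to their shared mean profile, and Atf3 (0.620), Myc (0.559) and Ier3 (0.553) the farthest from it, with each member itself part of that mean.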

How the data were processed

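Total RNA of 12 frozen LA was depleted of ribosomal RNA and sequenced with a stranded kit as 50-base single-end reads. The authors deposited a table of raw read counts per gene name. The submitters' processing notes list cutadapt, STAR 2.4.2a, Subread featureCounts, edgeR and mm10. The study's methods describe 2 alignment and counting routes, and which route made the table, and whether counting used strand, is not given in the sources used here.

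Genes with CPM above 1 in at least 6 libraries were kept, TMM factors were computed, and iNICD was compared with control in all 12 libraries by the edgeR quasi-likelihood test (edgeR 4.0.16, R 4.3.3) with Benjamini-Hochberg adjustment over 13541 genes at 0.05. Log2 CPM used a prior count of 2. The labels do not tie libraries to litters or days, so p-values measure the spread between animals of each group. Spread was compared by limma 3.58.1 on absolute deviations from the group means, and single members by an exact permutation test on mean log2 CPM (10 tests, p unadjusted). The functions were checked on simulated counts. Positions are from GENCODE M21 (GRCm38), promoters from RefSeq.

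Alternatives were DESeq2 1.42.0, the edgeR exact test, other size factors, filters and prior counts, sex, replicate blocks and leaving out each library. Leaving out control replicates 4 and 5 together, a robust dispersion fit and another size factor in the interaction fit were added after the data were seen. The members and lists were chosen with earlier results of these data known. The text names all members, up to 4 called genes per list (or the 2 with the widest change where none was called), and the 8 genes most like the members. Vegfa, Pdk1, Hk2 and Map2k4 were chosen after their values were seen. Replicates are numbered by sample title.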

Additional observations from a re-analysis of the deposited data

Results flagged for a closer look

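Each of the 20 sets of 6 values (10 members in 2 groups) was tested for 1 library far from the rest by Dixon's ratio of gap to range, with a critical value of 0.625, and 6 sets passed on the CPM scale. The critical value is set so that chance passes about 1 in 20 for independent, normally distributed values, which these skewed and shared values are not, and on the log2 CPM scale, tried after the data were seen, 0 of the 20 sets passed. In control LA, Fos was 284 normalized CPM in control replicate 4, with the other controls at 11.1 to 86.8. Jun was 238 in the same library, with the others at 49.6 to 103. In control replicate 5, Myc was 20.4, with the other controls at 2.52 to 5.71, and Ier3 was 80.1, with the others at 18.4 to 33.8. In iNICD LA both distant values were in replicate 5, Fosb at 7.67 against 1.06 to 3.17 and Atf3 at 70.2 against 6.14 to 17.9.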

How the results depend on the processing

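The count of members changed, 1 in the edgeR quasi-likelihood fit, was 5 with DESeq2, 5 with the edgeR exact test, 0 in females alone, 0 in males alone, 0 without control replicates 4 and 5, and 0 to 3 when 1 library was left out. The count of genes changed, 558, was 1059 with DESeq2, 8 in males alone and 351 to 797 with 1 library left out (351 without iNICD replicate 1). The count of genes with a changed spread, 1, was 1320 with no filter on low counts, 2 with a prior count of 0.5, 6 without control replicates 4 and 5, and 0 to 15 with 1 library left out, and no member was among them in these fits. The causes were not tested.

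The log2 fold change turned positive for Jun (0.28) and Atf3 (0.20) in males alone and for Myc without control replicate 5 (0.16, with -0.76 without control replicate 3 as the lowest value with 1 library left out) and without control replicates 4 and 5 (0.23). The spread difference, iNICD minus control, turned positive without control replicate 4 for Jun (0.19, lowest -0.21 without control replicate 1) and Nr4a1 (0.0075, lowest -0.33 without iNICD replicate 5), without iNICD replicate 6 for Nr4a1 (0.0084), and without control replicates 4 and 5 for Jun (0.098), Junb (0.27) and Ier2 (0.087). Among the other values for single members, 424 kept their direction and side of the threshold, 15 gained it and 11 lost it.

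With the replicate number of the titles as a block, 468 genes and 0 members were changed (Fos -2.31, adjusted p = 0.105, edgeR). The numbers of 2 controls differ between title and description, and with the description numbers as the pairing 421 genes and 2 members were called, Fosb (adjusted p = 0.0377) and Nr4a1 (adjusted p = 0.0180), but not Fos (0.0852). Same-numbered libraries correlated at -0.15 to 0.37 by title, 4 of 6 pairs over 0.1, and 5 of 12 libraries correlated best with their own number. The labels tie no number to a litter or day and not every pair was over 0.1, so the block was kept as an alternative.

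With 6 libraries per group and SDs of this size, the 95% intervals of the members' changes are wide, and a member that missed the threshold is not shown to be unchanged. Intervals cover counting error and the spread between animals only. Fosb and Myc rest on the fewest reads per kilobase.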
